A study of Mus musculus with 4 samples.

Results

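The mature miRNA repertoire of WT mouse embryonic stem cells was read from 1 small RNA library, which lists 707 mature miRNAs with 2594949 reads. All 707 listed miRNAs were taken, with no choice by level. The series holds 4 libraries in all, 1 per group: small RNA and poly(A) RNA from WT cells of the V6.5 line, and poly(A) RNA from Dgcr8-/- and Dicer-/- cells, labelled with the same strain. V6.5 is a mouse embryonic stem cell line, and the cells of every group were grown in DMEM with fetal bovine serum and ESGRO, a preparation of leukaemia inhibitory factor. The knockout alleles, and whether a group is 1 clone, are not described in the sources used here. With 1 small RNA library there is no replicate, so nothing below is a test between conditions. Each share of reads carries an exact Clopper-Pearson 95% interval that covers counting error only, since PCR reads are not independent molecules. A mature miRNA is short enough to be sequenced whole, so no correction for length was made. Levels are given as reads or as a share of all listed reads. Whether reads of different sequences stand in proportion to molecules was not tested. Words such as abundant, output and arm use therefore refer to reads.

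MiRNAs are cut from hairpins in long primary transcripts. Drosha and DGCR8, together called Microprocessor, release the hairpin in the nucleus, and Dicer cuts it in the cytoplasm into a duplex of a 5p and a 3p arm. An Argonaute protein usually keeps 1 arm and finds target mRNAs by pairing through the seed, bases 2 to 8 of the miRNA. In mouse embryonic stem cells the miR-290 cluster is known as the main source of miRNAs, and the miRNAs with the letters AAGUGC near their 5′ end are known for promoting the rapid cell cycle of these cells.

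The WT poly(A) library carried the transcripts that define the labelled cell type. All 10 stem cell marker genes examined had a row, from 140.8 CPM (counts scaled to the depth of the library) for Sall4 to 5564 CPM for Dppa5a, with Pou5f1 at 2207 CPM. Of 8 marker genes of feeder fibroblasts, 3 had a row, Col1a1 at 9.77, Pdgfrb at 12.7 and Thy1 at 17.6 CPM, and the other 5 were not analysed here.

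Mature sequences of leading miRNAs, and of lower relatives described with them, are shown 5′ to 3′ from RefSeq (GRCm38.p6) with the seed in capitals, because the seed groups them into families. They are grouped by shared seed and are not a list by abundance.
miR-293-3p: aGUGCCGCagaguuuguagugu
miR-294-3p: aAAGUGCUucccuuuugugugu
miR-291a-3p: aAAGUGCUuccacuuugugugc
miR-295-3p: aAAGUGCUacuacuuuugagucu
miR-291b-3p: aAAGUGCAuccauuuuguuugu
miR-290-3p: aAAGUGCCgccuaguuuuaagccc
miR-293-5p: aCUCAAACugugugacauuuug
miR-292-5p: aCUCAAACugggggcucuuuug
miR-290-5p: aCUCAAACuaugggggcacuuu
miR-96-5p: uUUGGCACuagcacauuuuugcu
miR-182-5p: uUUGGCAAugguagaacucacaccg
miR-25-3p: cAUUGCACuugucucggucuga
miR-32-5p: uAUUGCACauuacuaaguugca
miR-363-3p: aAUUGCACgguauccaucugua
miR-20b-5p: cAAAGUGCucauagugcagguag
miR-93-5p: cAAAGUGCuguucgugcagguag
miR-106b-5p: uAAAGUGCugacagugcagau
miR-20a-5p: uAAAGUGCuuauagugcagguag
miR-17-5p: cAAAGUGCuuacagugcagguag
miR-27a-3p: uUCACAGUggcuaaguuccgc
miR-7a-5p: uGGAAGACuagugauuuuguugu
miR-22-3p: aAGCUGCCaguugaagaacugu
Of the 707 names, 546 matched a RefSeq mature name directly and 9 through an older name of the same gene, such as miR-292-5p for miR-292a-5p. These 555 names hold 89.9% of the reads. The other 152 names, among them miR-292-3p and miR-30d-5p, enter no statement on sequence.

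Reads were concentrated in a handful of miRNAs. MiR-293-3p alone had 998005 reads, 38.5% of all (interval 38.4 to 38.5). The next 4 were miR-294-3p with 265812 reads (10.2%), miR-291a-3p with 237694 (9.16%), miR-292-3p with 198264 (7.64%) and miR-295-3p with 163848 (6.31%), so the top 5, all 3p arms of the miR-290 cluster, held 71.8% of the reads. MiR-293-5p followed with 103089 reads (3.97%). The first miRNAs from outside the cluster were miR-96-5p at rank 7 with 92145 reads (3.55%) and miR-182-5p at rank 8 with 64043 (2.47%), and miR-292-5p stood at rank 9 with 47552 (1.83%). Rank 10 was miR-25-3p, at 26234 reads (1.01%).

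The next 10 miRNAs lay between 9742 and 24003 reads. They were miR-7a-5p (24003 reads), miR-27a-3p (21417), miR-22-3p (17876), miR-32-5p (16261), miR-20b-5p (14824), miR-30d-5p (12968), miR-148a-3p (12937), miR-93-5p (12433), miR-21a-5p (12199) and miR-340-5p (9742). MiR-30d-5p and miR-148a-3p differed by less than their counting error, with intervals of 0.491% to 0.508% and 0.490% to 0.507%. The intervals of miR-93-5p and miR-21a-5p, 0.471% to 0.488% and 0.462% to 0.479%, also overlapped, and those of the other neighbours among the 20 most abundant did not.

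It took 3 miRNAs to reach 50% of the reads, 8 to reach 80%, 19 for 90%, 43 for 95% and 140 for 99%. The tail was long: 416 names had 10 reads or more and 94 had a single read. All names under 10 reads together held 997 reads, 0.0384% of the library. The median name had 21 reads, against a mean of 3670 reads, and the most abundant had 47524 times the median. The exponential of the Shannon entropy, a count of equally abundant miRNAs that would give the same diversity, was 13.8. A miRNA with 3 reads has a share of 0.000116%, and a miRNA that is not listed has no value here.

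**Figure D1:**
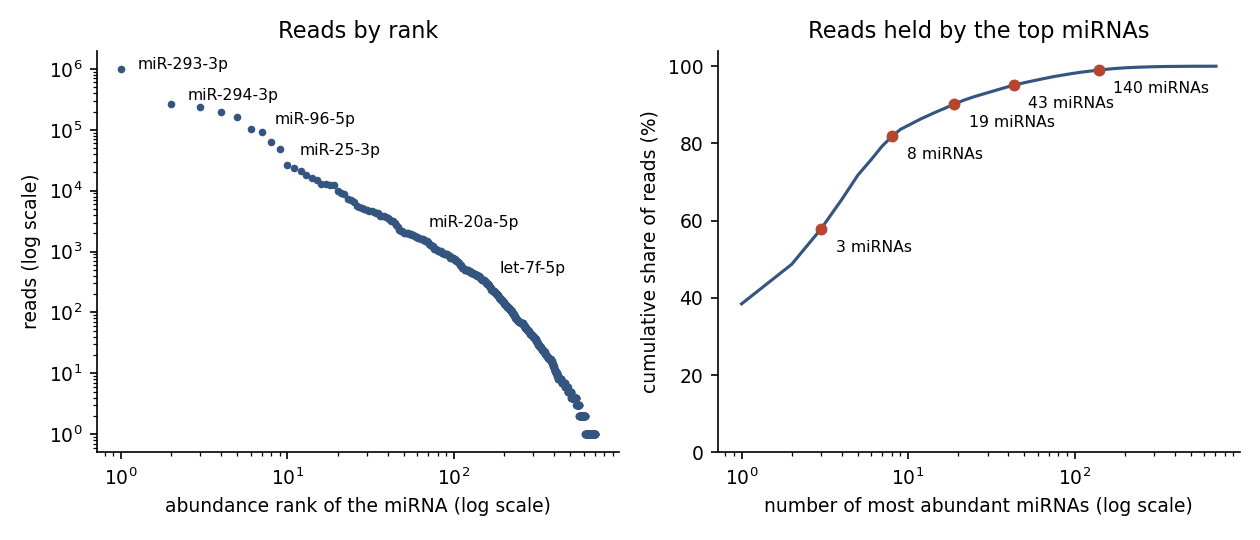
Left, reads of each of the 707 miRNAs (log scale) against its abundance rank (log scale), 1 point per miRNA in the WT library. Right, the cumulative share of reads (%) against the number of most abundant miRNAs, with red points where 50, 80, 90, 95 and 99% are reached, at 3, 8, 19, 43 and 140 miRNAs.

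The miR-290 cluster supplied most of the reads. Its 7 hairpins gave 14 mature names, every one of them listed, with 2026525 reads or 78.1% of the library (interval 78.04 to 78.15). The hairpins differed greatly in output. MiR-293 gave 1101094 reads over both arms, miR-294 gave 266028, miR-292 gave 245816, miR-291a gave 241561 and miR-295 gave 163926, while miR-291b gave 6612 and miR-290 only 1488. The first hairpin in genomic order was thus the lowest and the fifth the highest, with no steady trend along the cluster. MiR-293 made up 49.2% of the cluster's reads through its 3p arm and 5.09% through its 5p arm.

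The 3p arm was the more abundant in 6 of these 7 hairpins, to different degrees. The 5p arm had 78 of 163926 reads in miR-295 (0.0476%), 0.0812% of 266028 in miR-294 and 3867 of 241561 in miR-291a (1.60%). In miR-293 it had 9.36% and in miR-292 19.3% of the hairpin's reads. In miR-291b the 5p arm reached 34.6%, and in miR-290 it was the more abundant arm, at 70.0% (interval 67.6 to 72.3). MiR-291a and miR-291b have 5p arms with the same seed, and the share of that arm differed more than 20-fold between them, 1.60% (1.55 to 1.65) against 34.6% (33.5 to 35.8).

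**Figure D2:**
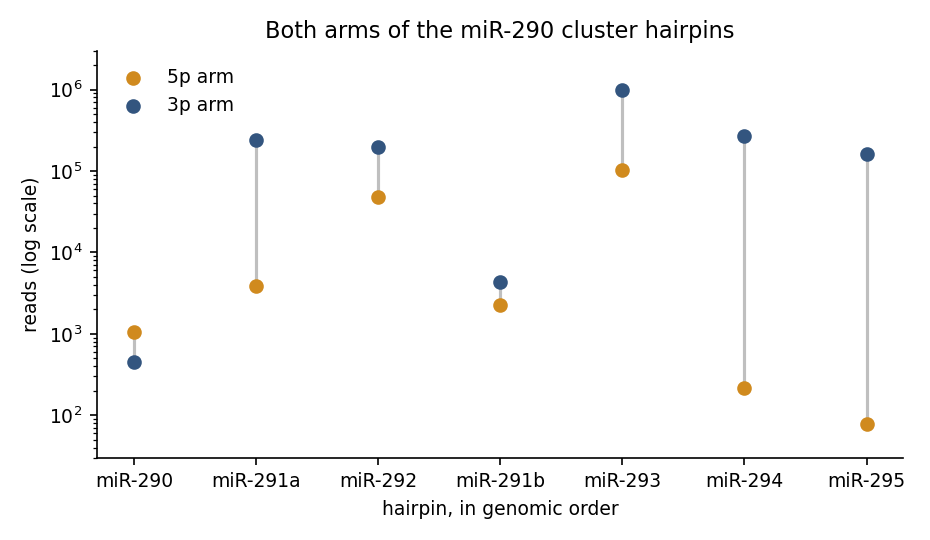
Reads (log scale) of the 5p arm (orange) and the 3p arm (blue) of each hairpin of the miR-290 cluster in the WT library, hairpins in genomic order, with a grey line joining the arms. The 3p arm lies above the 5p arm in every hairpin except miR-290, where 1041 reads of the 5p arm stand above 447 of the 3p arm.

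Grouping the 555 names with a sequence by seed gave 453 families, 386 of which had a single listed name. Families of 2 or more names (67) held 41.0% of the reads, and the 8 most abundant families together held 80.3% of all reads. The largest had just 1 name, miR-293-3p, whose seed GUGCCGC no other listed miRNA with a sequence carries. The second was the family with the seed AAGUGCU, at 667584 reads or 25.7% (interval 25.67 to 25.78). In it miR-294-3p, miR-291a-3p and miR-295-3p stood far above miR-302b-3p and miR-302d-3p, which had 122 and 108 reads. MiR-294-3p made up 39.8% of that family.

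Among names with a sequence, the third family was formed by 5p arms of the miR-290 cluster. MiR-292-3p, which has no sequence and is in no family, alone held more reads, 7.64% of the library. MiR-293-5p, miR-292-5p and miR-290-5p share the seed CUCAAAC and held 151682 reads, 5.85% of the library. MiR-96-5p and miR-182-5p, from 1 cluster, have seeds that part only at base 8 and counted as 2 families of 1 name, with 3.55% and 2.47%. By bases 2 to 7 alone they form 1 family with 6.02% of the reads.

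The family with the seed AUUGCAC (miR-25-3p, miR-32-5p, miR-363-3p, miR-92b-3p, miR-92a-3p and miR-367-3p) held 44726 reads, 1.72%. Its members come from several loci, though miR-363-3p and miR-92a-3p share the miR-106a-363 cluster. Alone among the 25 seeds shared by arms of 2 or more well-covered hairpins, this seed lies on both arms. MiR-25-3p gave 58.7% of the family, miR-32-5p gave 16261 reads from a 5p arm, and miR-92a-3p, the member made by both the miR-17-92 and the miR-106a-363 clusters, had 161 reads. The family of miR-17, with the seed AAAGUGC, held 41444 reads (1.60%), led by miR-20b-5p (14824 reads), miR-93-5p (12433) and miR-106b-5p (8793). MiR-106a-5p had 2176, miR-20a-5p 1721 and miR-17-5p 1497 reads, so the member the family is named for was the lowest of the 6. MiR-27a-3p and miR-27b-3p, with 21417 and 3907 reads, formed the eighth family among names with a sequence (0.976%).

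The letters AAGUGC were searched on the miRNA strand in the 555 sequences by position. Names without a sequence, among them miR-292-3p with 7.64% of the reads, were not searched, so the shares given here may be too low. They began at base 2 in 8 names with 672355 reads, 25.9% of the library: miR-294-3p, miR-291a-3p, miR-295-3p, miR-291b-3p, miR-290-3p, miR-302b-3p, miR-302d-3p and miR-350-5p. They began at base 3 in the 6 names of the miR-17 family, with 1.60% of the reads, and at base 1 in miR-302c-3p, with 13 reads. No listed sequence had them beginning at base 4 or 5. MiR-293-3p, the most abundant miRNA, does not contain these letters.

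**Figure D3:**
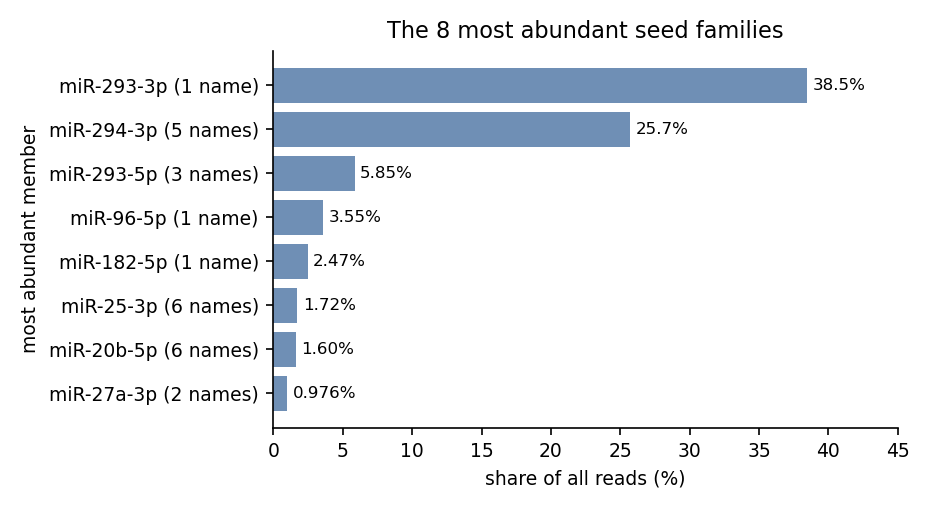
Share of all reads (%) of the 8 most abundant seed families among names with a sequence, in the WT library. Each is named by its most abundant member, with its number of listed names. MiR-292-3p (7.64% of the reads) has no sequence and is in no bar. The bar of miR-293-3p (38.5%) and that of the miR-294-3p family (25.7%) stand far above the third, at 5.85%. Counting intervals are narrower than the bar ends can show.

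Outside the miR-290 cluster, 3 clusters of neighbouring miRNA genes held 1% of the reads or more. The cluster of miR-182, miR-96 and miR-183, best known from sensory organs, had 161510 reads (6.22%). Its members were very unequal, with 92145 reads for miR-96-5p, 64043 for miR-182-5p and 5083 for miR-183-5p. The 3p arms of this cluster had 157, 11 and 71 reads in the same order. The cluster of miR-106b, miR-93 and miR-25, which lies inside the gene Mcm7, had 48399 reads (1.87%), of which miR-25-3p took 54.2%, miR-93-5p 25.7% and miR-106b-5p 18.2%. The cluster of miR-23a, miR-27a and miR-24-2 had 26919 reads (1.04%), of which miR-27a-3p took 79.6%; miR-23a-3p, from the same primary transcript, had 383 reads.

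The 2 other clusters related to miR-17 were lower. The X-linked miR-106a-363 cluster had 22819 reads (0.879%), and miR-20b-5p made up 65.0% of them. The miR-17-92 cluster, the subject of the study's title, had 8461 reads (0.326%, interval 0.319 to 0.333). Its highest members were miR-19b-3p (2537 reads, a sequence that both clusters make), miR-20a-5p (1721), miR-17-3p (1660) and miR-17-5p (1497). MiR-18a-5p had 535 reads and miR-92a-3p 161, and miR-19a-3p made up 2.27% of the cluster. The 6 hairpins are cut from a single transcript. The reads of miR-19b-3p and miR-92a-3p, which the miR-106a-363 cluster also makes, cannot be given to that transcript alone. Among the other hairpins, the more abundant arm was lowest in miR-19a (2.27% of the cluster) and highest in miR-20a (1721 reads). The cluster of the miR-302 hairpins and miR-367, which is known from primed stem cells, had 304 reads in all (0.0117%), led by miR-302b-3p (122) and miR-302d-3p (108), against 2026525 for the miR-290 cluster.

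Over the whole table the 3p arm held most of the reads and the 5p arm most of the abundant names. Names ending in 5p (323) held 20.9% of the reads and names ending in 3p (318) held 78.2%. Without miR-293-3p these shares were 33.9% and 64.6%. By contrast, 47 names on the 5p arm and 32 on the 3p arm had 1000 reads or more, and the median name had 33 reads on the 5p arm and 17.5 on the 3p arm.

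Both arms were listed for 233 hairpins, and 139 of these had 100 reads or more over both arms and held 96.4% of the library. Among the 139, the 5p arm was the more abundant in 77 and the 3p arm in 62. An arm held 90% or more of the hairpin's reads in 91 of them, as 52 hairpins were at least 90% 5p and 39 at least 90% 3p, and 48 lay between. The less abundant arm had a median of 2.60% of the hairpin's reads. The reads leaned the other way: pooled over these 139, the 5p arm had 483148 reads and the 3p arm 2017752, a 5p share of 19.3%. Over all 233 hairpins the 5p share was 19.4%, and it was 27.2% without miR-293. A further 175 stems of names had 1 arm listed, 90 the 5p arm and 85 the 3p arm. They enter none of these arm counts. Some of them, such as miR-7a, have an opposite arm listed under the name of a single locus.

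**Figure D4:**
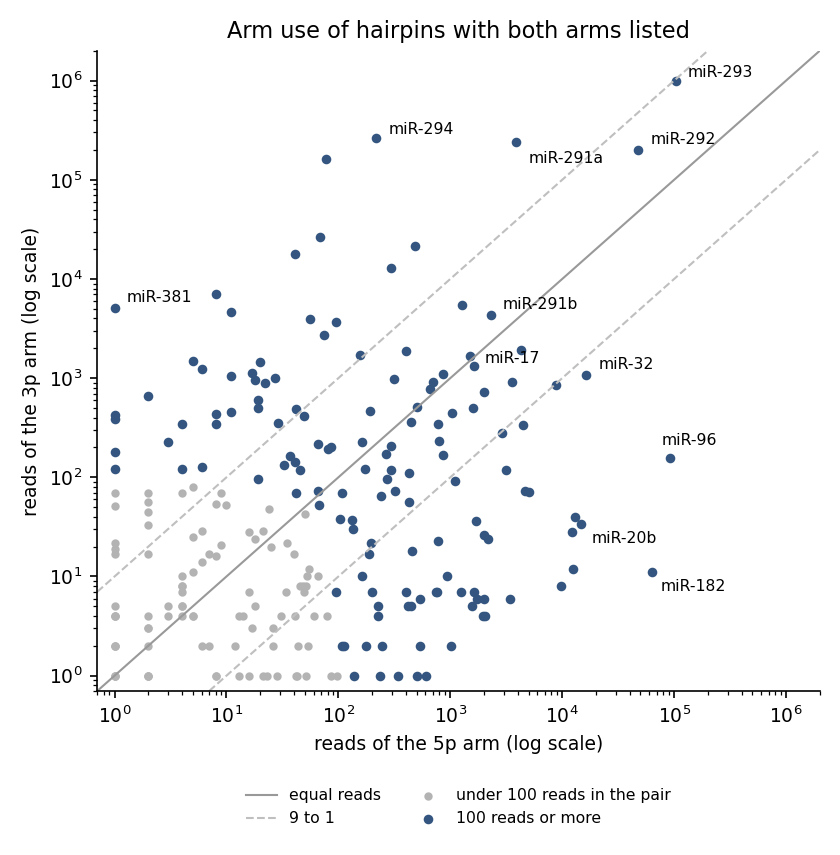
Reads of the 3p arm against reads of the 5p arm (both log scale) for the 233 hairpins with both arms listed, 1 point per hairpin in the WT library; blue, 100 reads or more over both arms. The solid line marks equal reads and the dashed lines a ratio of 9 to 1, beyond which 52 hairpins lie on the 5p side and 39 on the 3p side among the blue points.

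Some hairpins used 1 arm almost alone. Only hairpins with both arms listed were ranked, which leaves out those such as miR-672, with 4897 reads of the 5p arm and no 3p arm listed. Of the 67 hairpins with 1000 reads or more, those with the highest 5p share were miR-182 (64043 reads of the 5p arm and 11 of the 3p arm), miR-340 (9742 and 8), miR-93 (12433 and 12), miR-96 (92145 and 157), miR-181d (3421 and 6) and miR-34a (2039 and 4). Those with the lowest were miR-381, with 1 read of the 5p arm and 5115 of the 3p arm, then miR-295 and miR-294, miR-429 (8 and 7107), miR-22 (41 and 17876) and miR-210 (11 and 4593). With 1 read, the 5p share of miR-381 had an interval of 0.000495% to 0.109%. It covers those of miR-295 (0.0376% to 0.0594%) and miR-294 (0.0707% to 0.0928%), so the place of miR-381 beside them lay within counting error. The intervals of miR-295 and miR-294 did not overlap. Other neighbours at both extremes also had overlapping intervals, such as miR-340 and miR-93. MiR-210 is known for its induction by low oxygen, and miR-429 belongs to the miR-200 family of epithelial cells.

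Others gave both arms in similar amounts. The 6 hairpins nearest to equal use were miR-423 (505 reads of the 5p arm and 506 of the 3p arm), miR-17 (1497 and 1660), miR-335 (665 and 772), miR-411 (1631 and 1324), miR-181c (860 and 1096) and miR-200a (695 and 919). The interval of the 5p share included 50% in miR-423 (46.8 to 53.1) and missed it in the other 5, such as miR-17 at 47.4% (45.7 to 49.2). Counting error is the only error these intervals hold.

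Hairpins whose arms share a seed did not always share their arm use. Of the 25 seeds carried by arms of 2 or more hairpins with 100 reads or more, the arm with the seed was the more abundant in every such hairpin for 13 seeds, the less abundant in every one for 6, and divided for 6. Some hairpins, such as miR-17 and miR-30a, enter through the seeds of both arms, so these counts partly restate each other. The families of miR-27 and miR-130 were uniform: the 3p arm had 97.8% in miR-27a and 98.6% in miR-27b, and between 97.38% and 97.50% in miR-130a, miR-130b and miR-301a. The miR-17 family was not. The 5p arm had 99.9% of the reads in miR-93, 99.8% in miR-20b, 99.7% in miR-20a, 98.9% in miR-106a and 91.1% in miR-106b, and 47.4% in miR-17 itself. Likewise the 5p arm had 99.8% in miR-181d and 44.0% in miR-181c, and 99.8% in miR-34a and 47.8% in miR-34b, a hairpin of few reads (66 and 72).

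The more abundant arm tended to begin with U. Of the 139 hairpins, 103 had a sequence for both arms. The more abundant arm began with U in 52 of them (50.5%) and the less abundant arm in 18 (17.5%). In 42 hairpins only the more abundant arm began with U, and in 8 only the less abundant one did. C was the first base of 14 more abundant arms (13.6%) and 34 less abundant ones (33.0%), A of 29 and 38, and G of 8 and 13. The hairpins are of 1 library and partly related in sequence, so these counts describe the library and carry no test.

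Read by read, however, A was the commonest first base. It began 29.7% of the 555 names with a sequence and 80.6% of their reads, and U began 38.6% of names and 15.1% of reads. The 3p arms of the miR-290 cluster shown above begin with A. Without miR-293-3p, A still began 66.1% of the reads and U 26.5%. G was rare at 0.552% of the reads, against 11.0% of the names. Annotated sequences of 22 bases made up 56.6% of the names and 80.1% of the reads, and the 25 bases of miR-182-5p account for most of the 2.79% of reads in names of that length.

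The pairing at the 2 ends of the duplex, which is known to bias which arm Argonaute takes, was compared by the predicted energy of the first 5 bases of an arm with the last 7 of the other. The 5′ end of the more abundant arm was the less stable end in 61 of the 103 hairpins and the more stable one in 40, with 2 equal. The median energy was -1.3 kcal/mol at the 5′ end of the more abundant arm and -2.2 kcal/mol at that of the other arm. With ends of 3 bases the less stable end was that of the more abundant arm in 76.2% of the unequal hairpins. The value was 60.4% with 5 bases and 58% with 7. With 3 bases the median energies of the more and the less abundant arm were both positive, 1.7 and 0.4 kcal/mol. Among hairpins whose main arm had 90% or more of the reads the counts were 44 less stable and 23 more stable, and among the rest 17 and 17; whether these differ was not tested.

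Single hairpins went both ways. In miR-25, almost wholly 3p, the end energies were -3.8 kcal/mol for the 5p arm and -0.1 for the 3p arm. In miR-181d, almost wholly 5p, they were -1.3 and -7.4. In miR-96, also almost wholly 5p, they were -2.5 for the 5p arm and 0.4 for the 3p arm, the opposite order to the arms' reads. In miR-381 they were -0.1 and -1.9, where the 3p arm had 5115 of 5116 reads.

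MiRNAs known from other cell types were mostly low as a share of reads. By rank among the 707 names they varied, with miR-21a-5p at 19, miR-143-3p at 69, miR-124-3p at 84 and miR-10b-5p at 545. Of 12 stems known from fibroblasts and mesenchyme, 11 were listed, with 16406 reads (0.632%), and miR-21a-5p, which many cell types make, had 12199 of these. MiR-143-3p had 1488 reads and miR-196a-5p 896, while miR-199a-3p had 10 and miR-10b-5p 3. The 7 neural stems were all listed, with 2938 reads (0.113%), led by miR-124-3p (990), miR-9-5p (783) and miR-9-3p (343). Muscle miRNAs had 82 reads over 5 of 7 stems, the highest being miR-499-5p with 34. Blood miRNAs had 586 reads over 4 of 5 stems, of which miR-142-3p had 493. The liver miRNA miR-122-5p had 11, and endoderm and pancreas miRNAs 1221 over 3 of 5 stems, mainly miR-192-5p (1006). In a bulk library, a few cells that make much of a miRNA and many cells that make little cannot be told apart.

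The let-7 family, which is known to promote differentiation and whose processing LIN28A blocks, was low in full. All 9 stems, miR-98 included, were listed, with 870 reads (0.0335%, interval 0.0313 to 0.0358). The highest were let-7f-5p (298 reads), let-7g-5p (198) and let-7c-5p (147), and let-7b-5p had 5. Lin28a stood at 151 CPM (1503 counts) and Lin28b at 11.5 CPM (114 counts) in the WT poly(A) library. The miR-200 family had 9664 reads (0.372%), of which miR-429-3p had 7107, miR-200a-3p 919 and miR-141-3p 203. The p53-regulated miR-34 family, with miR-449, had 3816 (0.147%), nearly all miR-34a-5p (2039) and miR-34c-5p (1622).

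Hairpins that are known to bypass Microprocessor were also present at low level. The short hairpins miR-320 and miR-484 had 1528 reads (0.0589%), with 1225 for miR-320-3p and 297 for miR-484. Of the mirtrons miR-702, miR-877 and miR-1224, which splicing releases, miR-877 was listed, with 8 reads, and the others were not. All 18 miRNA pathway genes examined had a row in the WT poly(A) library, among them Drosha (171 CPM), Dgcr8 (52.7), Xpo5 (113), which exports the hairpin, and Dicer1 (79.9). Of the Argonaute genes, Ago1 had 336 counts, Ago2 152, Ago3 17 and Ago4 5.

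Host transcripts in poly(A) RNA were set beside these miRNAs. Whether host counts follow mature reads was not tested. A row of the mRNA table was taken as a host where its RefSeq span holds a miRNA gene on the same strand. There were 135 host rows, 120 protein-coding and 15 noncoding, covering 259 miRNA names and 85.8% of the small RNA reads, and 14 of the 20 most abundant miRNAs. With 1 library per group, effects of genotype, culture and library cannot be told apart. The targeted genes were lowest in their own knockout: Dgcr8 had 523 counts in WT, 232 in its own knockout and 1043 in the other, and Dicer1 had 794, 1419 and 247 in the same order. The feeder markers with a row were higher in WT, as Col1a1 had 9.77, 0.539 and 0.406 CPM, Thy1 17.6, 2.07 and 1.30, and Pdgfrb 12.7, 8.45 and 0.812, and their part in the host values was not tested. Between 69.6% and 74.8% of rows with 2 to 9 counts had an even count, so counts may hold mates of 1 fragment and the intervals may be too narrow.

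D7Ertd143e, the noncoding transcript whose span holds 6 of the 7 miR-290 cluster hairpins (all but miR-290), had 501 counts in the WT library, 4820 without Dgcr8 and 1124 without Dicer. It was thus highest in the Dgcr8 knockout library. In CPM these are 50.4, 433 and 91.3, ratios to WT of 8.59 (interval 7.83 to 9.44) and 1.81 (1.63 to 2.02). Mir17hg, the miR-17-92 transcript, had 17, 472 and 509 counts in the same order, ratios of 24.8 (15.3 to 42.9) and 24.2 (14.9 to 41.8). Its RefSeq model holds just the last hairpin, Mir92-1. Mir17hg was thus at similar levels in both knockout libraries, and D7Ertd143e was not. The order of D7Ertd143e was not particular to it. Other host rows, such as 2610318N02Rik around miR-130b, were also higher in the Dgcr8 than in the Dicer knockout library. Others, such as Nexmif around miR-672, were lower.

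Protein-coding hosts of the 20 most abundant miRNAs differed by gene. Mcm7, a replication helicase gene around the miR-106b-25 cluster, had 4302, 8805 and 8179 counts, ratios of 1.83 (1.76 to 1.90) and 1.53 (1.48 to 1.59). Hnrnpk, an RNA-binding protein gene that holds 1 of the 2 loci of miR-7a placed here, had 7106, 9469 and 10618 counts, ratios of 1.19 and 1.21. Vmp1, an autophagy gene around miR-21a, had 523, 586 and 707 counts, and its ratios had intervals of 0.888 to 1.13 and 0.973 to 1.22, both of which include equality. Tmem245, around miR-32, had 46, 148 and 174 counts, ratios of 2.87 and 3.05. Rnf130, around miR-340, had 12.6, 11.9 and 22.3 CPM, ratios of 0.943 (0.733 to 1.21) and 1.78 (1.43 to 2.21). The noncoding host Mir22hg had 26, 55 and 15 counts, ratios of 1.89 (1.16 to 3.14) and 0.465 (0.229 to 0.912).

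**Figure D5:**
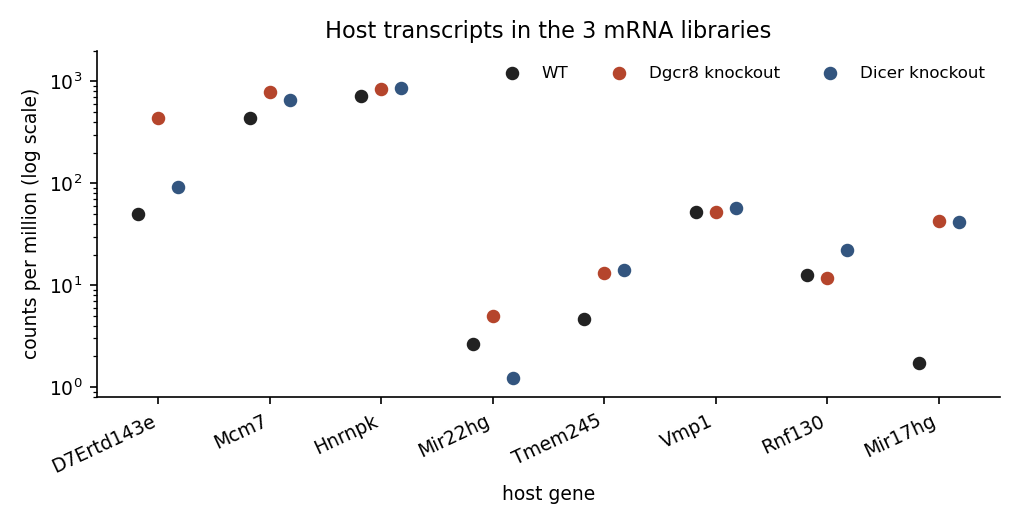
CPM (log scale) of 8 host transcripts in the 3 poly(A) libraries, 1 point per library: WT (black), Dgcr8 knockout (red) and Dicer knockout (blue). Points should be compared within a gene, as values are not scaled by length. D7Ertd143e is highest in the Dgcr8 knockout (433 against 50.4 in WT), and Mir17hg is near 42 CPM in both knockouts against 1.71 in WT.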

How the data were processed

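Small RNA libraries were made from Trizol-extracted total RNA and stranded libraries from poly(A) RNA, per the labels' protocols. Bowtie and the mouse build mm9 are named in the submitters' processing notes; the counter, the annotation, trimming and filters are not stated in the notes or labels. Both tables hold counts as the authors deposited them, whole numbers with no scaling: reads per mature miRNA, and counts per RefSeq entry (totals of 9931625 for WT, 11123498 for Dgcr8-/- and 12309100 for Dicer-/-), with empty cells read as 0.

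Shares, Clopper-Pearson intervals (SciPy 1.17.1), seeds, arms and clusters were computed from the counts with Python 3.11.15. Duplex end energies came from RNAduplex (ViennaRNA 2.7.2). The share and arm scripts were tested on simulated data. A cluster joins miRNA genes on the same strand at most 10 kb apart in GRCm38.p6; a miRNA of several loci counts in each. That build differs from mm9, so no coordinates are given. Host ratios are ratios of CPM with exact conditional binomial intervals.

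Named miRNAs are the 20 most abundant, leading members (up to 5) of the 8 most abundant seed families, members of clusters with 1% of reads or more, the 6 hairpins at each extreme and nearest to equal arm use among those with 1000 reads or more, and members of fixed lists; single related hairpins and clusters beside these were chosen after their values were seen. Members and lists were chosen with earlier results of these data known.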

Additional observations from a re-analysis of the deposited data

How the results depend on the processing

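Of 101 alternatives, 67 left the value within its counting interval or, for counts, within 1.5 times, 34 moved it further, and 0 reversed a direction. Without miR-293-3p, 80, 90 and 95% of the reads took 13, 34 and 67 miRNAs, and the shares of the next 7 single miRNAs examined moved, miR-294-3p to 16.6%, miR-291a-3p to 14.9%, miR-292-3p to 12.4%, miR-295-3p to 10.3%, miR-293-5p to 6.46%, miR-96-5p to 5.77% and miR-182-5p to 4.01%. Over names with a sequence only, the 8 leading seed families held 42.8, 28.6, 6.50, 3.95, 2.75, 1.92, 1.78 and 1.09% in their order above. By bases 2 to 7 the miR-294-3p family held 25.9%, and miR-96-5p and miR-182-5p together 6.02%. With gaps of at most 3 kb the miR-96 cluster lost miR-182 and held 3.76%. With reads divided over loci the miR-106a-363 cluster held 0.827% and the miR-17-92 cluster 0.274%. Among hairpins with 1000 reads or more, 27 were mostly 5p, 21 mostly 3p and 19 neither; with 10 reads or more, 87 were neither. With ends of 3 bases, 76.2% of the unequal hairpins had the less stable end on the more abundant arm, and with ends of 7 bases 58%. The cause was not tested. Median-ratio scaling gave host ratios to WT in the Dgcr8 and Dicer knockouts of 1.66 and 1.42 for Mcm7 and 1.08 and 1.12 for Hnrnpk, and 7.80 for D7Ertd143e in the Dgcr8 knockout. The other alternatives change the denominator, the grouping, the minimum of reads or the scale by construction. No paired analysis was possible because each group has 1 library. Depth limits arms and names under 10 reads, whose order among themselves lies largely within counting error.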

Other observations

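Names without an arm label were few in reads. There were 66 of them with 24752 reads, 0.954% of the library, and miR-690 (9315 reads), miR-6243 (6570) and miR-5099 (3774) made up most of these.

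Near-identical miRNAs often differed widely in reads. Of the 40 most abundant names with a sequence, 15 had another listed name within 2 bases. At 1 base of difference, miR-181d-5p had 3421 reads and miR-181b-5p 5, miR-7a-5p had 24003 and miR-7b-5p 403, and miR-27a-3p had 21417 and miR-27b-3p 3907, while miR-30a-5p and miR-30e-5p were close, at 4474 and 3571. How reads that fit several names were assigned is not stated in the notes or labels.

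MiR-24 had more reads on an arm of 1 locus than on the arm both loci share. MiR-24-2-5p had 3140 reads, miR-24-3p, which 2 genes make, had 1498, and miR-24-1-5p had 31. These examples were chosen after their values were seen.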
